A study of Mus with 51 samples.

Results

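CD4 T cells that were given an agonist peptide together with GP and that reached the CD69-high gate were compared with cells given GP without the agonist, at 1, 6 and 24 h. GP is the self-peptide of the study and was present on both sides of the comparison. The members were chosen by label: the MCC+GP CD69-hi libraries (3 at each time) and the GP libraries (3 at 1 h, 2 at 6 h and 3 at 24 h), which are 17 of the 51 libraries of the series. Each time was tested separately, so the comparison gives the response to the agonist on a background of self-peptide, from libraries apart from those of the arms without GP.

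The study concerns the effect of self-peptides on T cell receptor (TCR) signalling and on gene expression in CD4 T cells. RNA was extracted from sorted cells, selected for poly-A tails and sequenced as paired reads. All cells came from lymph nodes of 5C.C7 TCR transgenic mice, labelled B10.A-Rag2tm1FwaH2-T18aTg (Tcra5CC7,Tcrb5CC7)lwep. These mice lack Rag2 and so rearrange no receptor of their own, and nearly every T cell carries the transgenic 5C.C7 receptor, which recognises MCC, a peptide of moth cytochrome c. The MCC+GP CD69-hi groups had both peptides and a sort for high CD69, whereas the label of the GP groups names no CD69 gate, so the agonist and the gate cannot be told apart here. A parallel comparison, MCC CD69-hi against cells with no peptide (NP), has 17 other libraries of the same strain and times, and no GP. The labels give no age or sex and do not say which animals the replicates came from. Levels of Xist and of Y-linked genes differed between replicates of a group, so these were not all drawn from 1 source. The p-values rest on the spread between replicates, estimated over all 51 libraries of the series and not only the 17 compared.

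When a TCR binds its agonist, kinases at the membrane start calcium, ERK and NF-kB signalling, which switch on immediate early transcription factors and, through these, cytokines, receptors and cell growth. CD69 is a surface receptor that appears early in this response and retains cells in the lymph node by removing the egress receptor S1PR1. Self-peptides bind the same receptor too weakly to start a full response on their own and are known for tonic signals that keep T cells alive and responsive.

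MCC+GP CD69-hi libraries held 930161 to 1105292 counts in all at 1 h. The range at 6 h was 5227459 to 7477764, and that at 24 h 5726942 to 10278776. GP libraries held between 4974395 and 5898008 counts at 1 h, 4944475 and 5700893 at 6 h, and between 4977421 and 5872334 at 24 h. The depth at 1 h therefore differed between the groups with no overlap, and the counts of changed genes with all libraries thinned to the lowest total are given below. CD4 T cell genes were present throughout: Cd4 stood between 74.6 and 374 CPM (counts scaled to library size) in MCC+GP CD69-hi and between 519 and 661 in GP, and Cd3e between 123 and 256 in MCC+GP CD69-hi and between 233 and 361 in GP. Over these 17 libraries Cd8a did not exceed 6.33 CPM, Ncr1 of natural killer cells 0.802 CPM and Col1a1 of stroma 1.81 CPM, while Cd8b1 reached 27.9 CPM in GP at 24 h. At 1 h Lyz2 of myeloid cells lay between 71.0 and 114.9 CPM in MCC+GP CD69-hi and between 11.2 and 68.7 in GP, and the globin gene Hbb-bs between 0 and 358 CPM in MCC+GP CD69-hi and between 26.5 and 86.5 in GP. Xist, expressed only in female cells, ranged from 0 to 1047 CPM among them and was alike across groups in part of the plate rounds read from the wells: at 24 h it stood at 1047 CPM in MCC+GP CD69-hi and 862 in GP in the second round and at 27.8 in MCC+GP CD69-hi and 65.4 in GP in the third, whereas at 1 h it stood at 558 in MCC+GP CD69-hi and 67.1 in GP in the third. The arm without GP held a like pair in that round at 1 h, with Xist at 576.3 CPM in MCC CD69-hi and 40.54 in NP. In bulk RNA, fewer cells of a type and less RNA per cell cannot be told apart.

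The summed levels of B-cell and of MHC class II genes differed between the groups, most at 1 h. The sum of myeloid and dendritic genes differed more at 6 h, with means of 627.8 CPM in MCC+GP CD69-hi and 149.6 in GP. Its means at 1 h were 542.7 in MCC+GP CD69-hi and 190.1 in GP. Over 19 B-cell genes the summed level lay between 2734.3 and 5023.9 CPM in MCC+GP CD69-hi and between 560.5 and 882.1 in GP at 1 h. The 6 h ranges were 922.9 to 1740.4 in MCC+GP CD69-hi and 482 to 647.2 in GP, and those of 24 h were 209.5 to 309.9 in MCC+GP CD69-hi and 537.7 to 837 in GP. The groups did not overlap at any of these times, and the order turned round at 24 h. None of the 19 genes was at 0 in every library of a group, and Cd79a, of the B-cell receptor, stood at 184 to 276 CPM in MCC+GP CD69-hi against 34.5 to 51.5 in GP at 1 h. A mouse without Rag2 makes no mature B cells, and the labels do not name a source of these transcripts. The same list stood at 3028.9 to 4822.5 CPM in MCC CD69-hi against 533 to 729.3 in NP at 1 h. Which cells carried an induced transcript was not tested, and values with the B-cell sum as a covariate are given below beside part of the results.

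**Figure D1:**
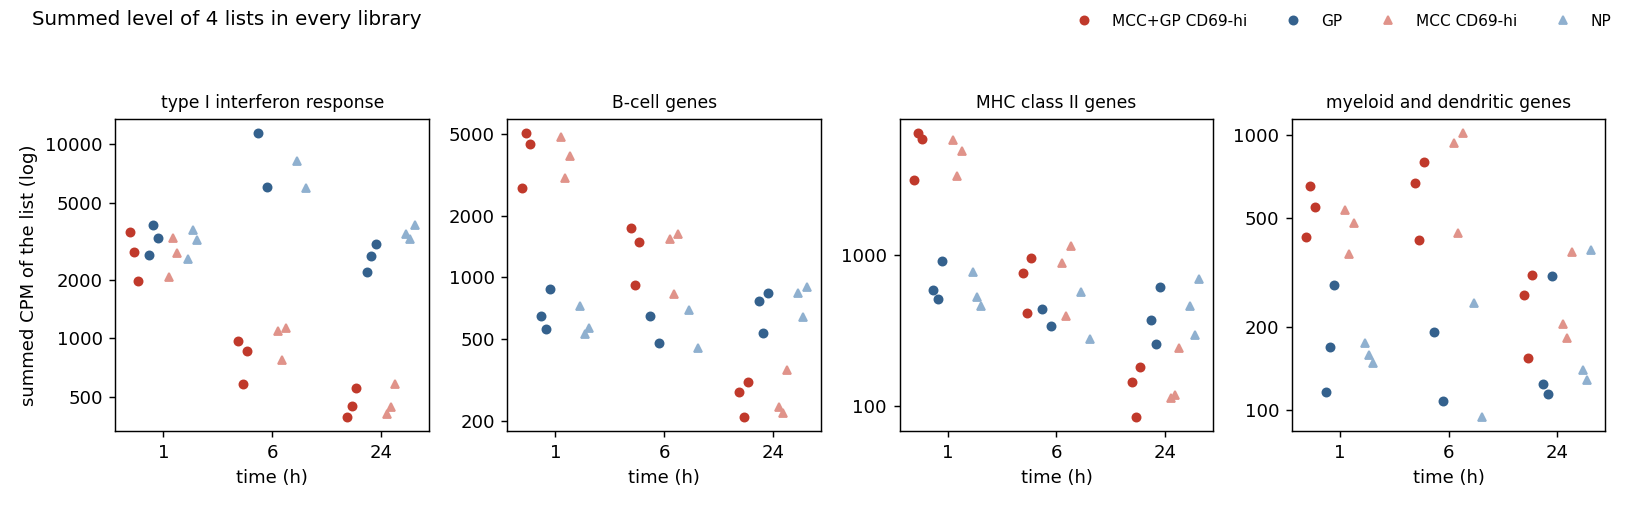
Summed CPM of 4 gene lists (type I interferon response, B-cell, MHC class II, myeloid and dendritic genes) on a log axis, in each library of MCC+GP CD69-hi, GP, MCC CD69-hi and NP at 1, 6 and 24 h; points are libraries. B-cell genes stood at 2734.3 CPM or more in MCC+GP CD69-hi at 1 h against at most 882.1 in GP, and interferon genes in GP were highest at 6 h, at 11390 and 6030 CPM.

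Values below are CPM on normalized library sizes, given for the replicates of each group in turn, with log2 fold changes ± SE and adjusted p-values from edgeR's quasi-likelihood test over 17211 genes. A gene rose or fell where its adjusted p was under 0.05. At 1 h 33.8% of genes changed, 2357 upward (13.7%) and 3455 downward (20.1%). At 6 h 46.7% changed, 4040 upward (23.5%) and 3998 downward (23.2%). At 24 h 58.5% changed, 5073 upward (29.5%) and 4992 downward (29%). Changes of more than 2-fold were made by 1862 rising and 1843 falling genes at 1 h, 3007 and 3172 at 6 h, and 3818 and 4008 at 24 h. Under RLE scaling instead of TMM the 1 h calls were 3247 higher and 2193 lower, with a median log2 fold change of all genes of 0.114 in place of -0.094. Changes at 1 h that are no larger than this shift have no firm sign. At 24 h the median was -0.313 with RLE, which called 4573 genes higher and 5550 lower, and -0.155 with TMM. With the B-cell sum as a covariate 1001 genes rose and 2148 fell at 1 h, and with thinned counts 1443 rose and 2359 fell. With plate round as a block 5271 genes changed at 1 h, and with that block and only the 2 compared groups in the fit 2009.

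Cd69, the gene behind the gate, stood at 2009, 1984 and 1132 CPM in MCC+GP CD69-hi against 186, 215 and 145 in GP at 1 h, at 867, 947 and 1130 in MCC+GP CD69-hi against 52.8 and 46.4 in GP at 6 h, and at 134, 183 and 195 in MCC+GP CD69-hi against 16.7, 23.9 and 22.0 in GP at 24 h. Since the cells were sorted on its product, these values describe the sort.

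Transcription factors known as targets of the TCR were mostly higher from the first hour on. Of 30 tested, 19 rose and 4 fell at 1 h, 21 rose and 3 fell at 6 h, and 21 rose and 1 fell at 24 h, with median log2 fold changes of 2.38, 2.36 and 2.45. Nr4a1 encodes the nuclear receptor Nur77, a marker of TCR signal (mm10 chromosome 15, 101253902 to 101274795). It stood at 10010, 8501 and 6025 CPM in MCC+GP CD69-hi against 339.6, 719 and 360.3 in GP at 1 h (4.11 ± 0.53, adjusted p = 1.86e-07) and at 3293, 3498 and 4182 in MCC+GP CD69-hi against 69.9 and 85.9 in GP at 6 h (5.55 ± 0.68, adjusted p = 1.51e-08). Values at 24 h were 294, 250.0 and 223 in MCC+GP CD69-hi against 28.4, 54.3 and 33.4 in GP (2.72 ± 0.51, adjusted p = 2.27e-05). The groups did not overlap at any time, while the level of Nr4a1 in activated cells was lower at each later time. Egr2, a zinc finger factor tied to anergy and feedback, stood at 984, 772 and 597 CPM in MCC+GP CD69-hi against 18.1, 49.6 and 22.6 in GP at 1 h (4.70 ± 0.53, adjusted p = 1.6e-08), and still at 48.0, 65.9 and 68.6 in MCC+GP CD69-hi against 3.65, 5.55 and 3.35 in GP at 24 h (3.85 ± 0.60, adjusted p = 1.03e-06). Atf3, a stress-induced factor, was briefer, with 310, 303 and 176 CPM in MCC+GP CD69-hi against 3.37, 3.53 and 7.59 in GP at 1 h (5.74 ± 0.41, adjusted p = 2.82e-13) and 17.2, 15.1 and 16.2 in MCC+GP CD69-hi against 0.768, 1.68 and 1.92 in GP at 24 h (3.42 ± 0.50, adjusted p = 2.5e-07).

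Myc and Irf4 kept high levels to the end of the day. Myc, which drives biosynthesis and growth, stood at 999, 1269 and 657 CPM in MCC+GP CD69-hi against 25.7, 28.2 and 35.6 in GP at 1 h (5.03 ± 0.27, adjusted p = 6.63e-19) and at 1457, 1269 and 1411 in MCC+GP CD69-hi against 34.5 and 34.2 in GP at 6 h (5.33 ± 0.33, adjusted p = 9.8e-19). Its 24 h levels were 723, 726 and 757 in MCC+GP CD69-hi against 60.3, 75.2 and 60.3 in GP (3.49 ± 0.25, adjusted p = 9.45e-17). Every activated library was above every GP library by a wide margin. Irf4, a factor whose level follows the strength of the TCR signal, stood at 1236, 1540 and 1420.0 CPM in MCC+GP CD69-hi against 71.2, 120.1 and 112 in GP at 1 h (3.79 ± 0.25, adjusted p = 5.28e-16). By 24 h it stood at 939, 1054 and 1250 in MCC+GP CD69-hi against 18.04, 27.3 and 29.9 in GP (5.42 ± 0.28, adjusted p = 6.31e-22). The fold of Irf4 was larger at 24 h than at 1 h, with lower mean levels on both sides. Bhlhe40, a repressor that supports cytokine production, followed the later course, at 169, 145 and 177 CPM in MCC+GP CD69-hi against 15.6, 7.24 and 22.2 in GP at 1 h (3.44 ± 0.42, adjusted p = 5.51e-08) and 459, 309 and 388 in MCC+GP CD69-hi against 5.57, 4.71 and 12.8 in GP at 24 h (5.63 ± 0.44, adjusted p = 2.17e-13).

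**Figure D2:**
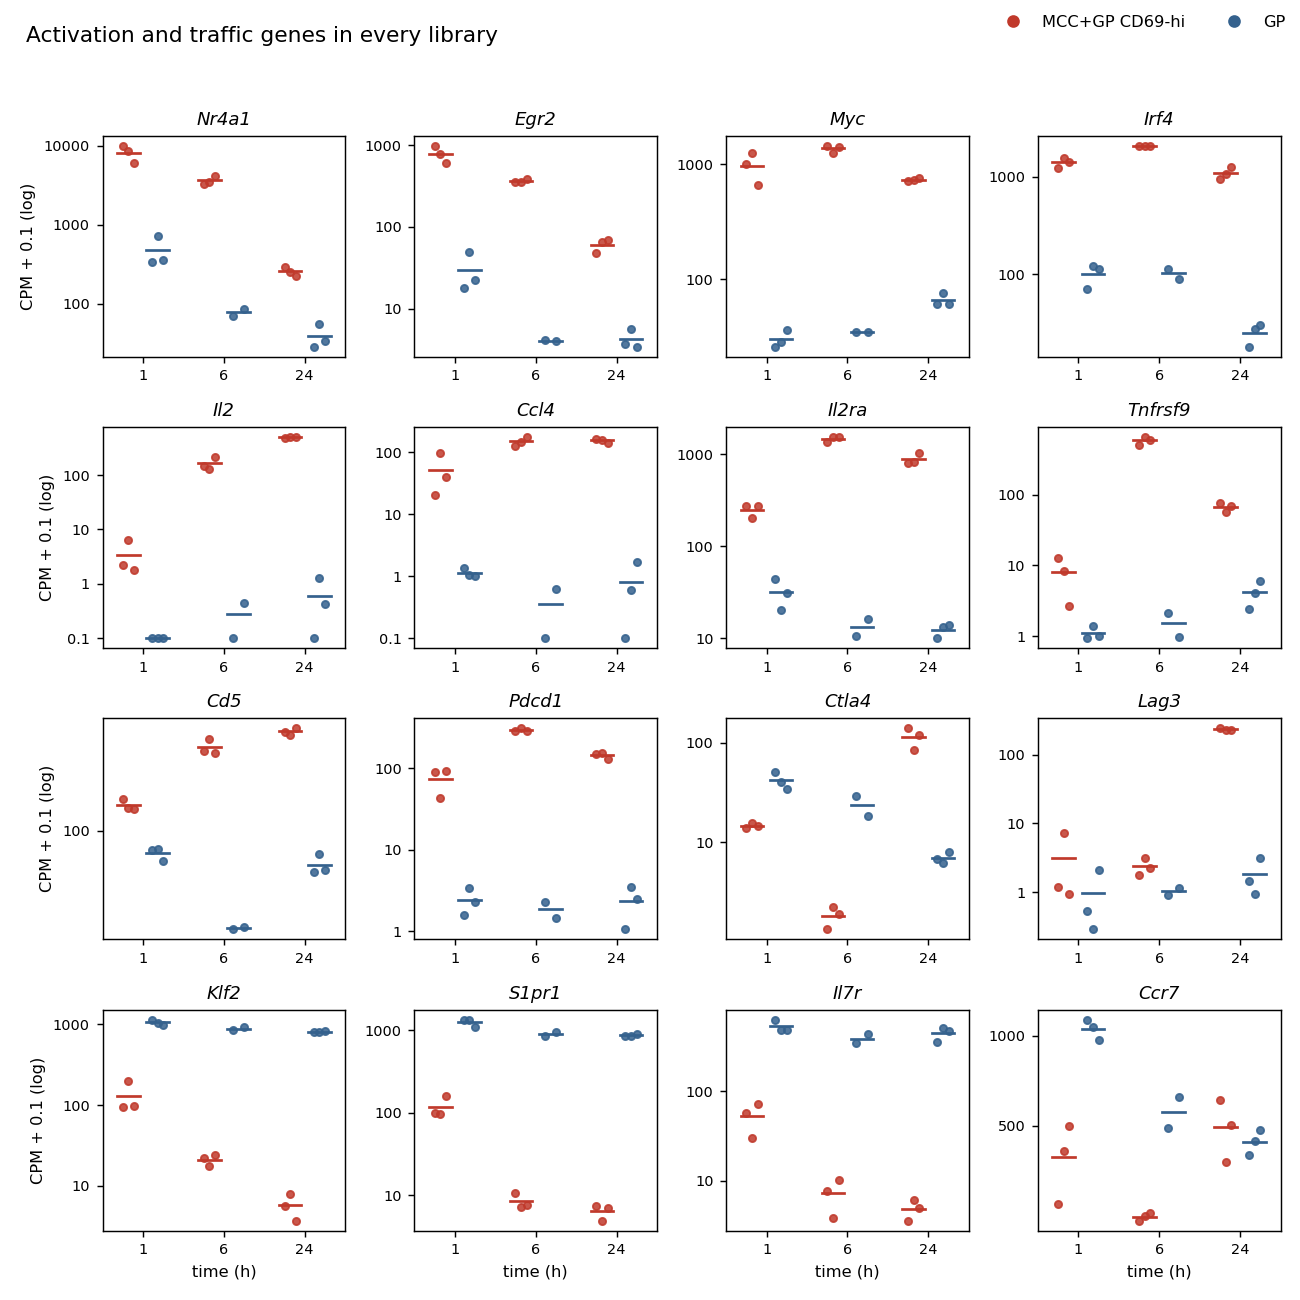
CPM plus 0.1 on a log axis for 16 genes of signalling, cytokines, receptors and traffic, in each library of MCC+GP CD69-hi and GP at 1, 6 and 24 h; points are libraries. The activated libraries lie above GP for Nr4a1, Egr2, Myc and Irf4 at each time and below it for Klf2, S1pr1 and Il7r, while Ctla4 lies below GP at 1 and 6 h and above it at 24 h.

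Genes of NF-kB and NFAT feedback and of ERK feedback also rose. In the NF-kB and NFAT list 10 of 20 rose and 2 fell at 1 h, 15 and 2 at 6 h, and 13 and 3 at 24 h, with medians of 0.69, 1.22 and 1.04. Nfkbid, a nuclear regulator of NF-kB, stood at 2212, 2005 and 1266 CPM in MCC+GP CD69-hi against 176 to 289 in GP at 1 h (3.04 ± 0.28, adjusted p = 3.93e-11). The NF-kB subunit gene Nfkb1 rose by 1.81 ± 0.23 at 1 h, 3.22 ± 0.28 at 6 h and 2.39 ± 0.23 at 24 h (adjusted p of 1.94e-08, 1.09e-13 and 1.58e-12). The list of ERK pathway brakes holds 18 genes, among them the cytokine gene Lif, which is also in the cytokine list below. Of these 18, 9 rose and 3 fell at 1 h, 13 and 2 at 6 h, and 14 and 3 at 24 h (medians 1.12, 2.95 and 2.44). At 1 h the rising counts were 15 with RLE size factors and 9 with the B-cell covariate in the NF-kB and NFAT list, and 12 and 6 in the ERK list. Spry1, an inhibitor of receptor signalling to ERK, stood at 66.1, 91.0 and 60.7 CPM in MCC+GP CD69-hi against 0.842, 1.49 and 0.903 in GP at 1 h and at 638, 634 and 644 in MCC+GP CD69-hi against 0.403 and 2.58 in GP at 6 h (8.65 ± 0.63, adjusted p = 6.1e-14). The phosphatase gene Dusp4 rose by 2.08 ± 0.29, 5.24 ± 0.35 and 6.71 ± 0.33 at the 3 times. Dusp10, a phosphatase of the stress kinases, went the other way: it stood at 126, 103 and 169 CPM in MCC+GP CD69-hi against 1127, 1066 and 922 in GP at 1 h (-2.96 ± 0.32, adjusted p = 4.07e-09) and at 6.41, 10.3 and 8.34 in MCC+GP CD69-hi against 190.2 and 203 in GP at 6 h (-4.55 ± 0.37, adjusted p = 5.92e-13).

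Cytokine and chemokine genes rose, some early and some late. Of 26 tested, 15 rose and 1 fell at 1 h, 17 rose and 4 fell at 6 h, and 15 rose and 2 fell at 24 h, with medians of 3.49, 4.19 and 3.84. At 1 h 11 rose with the B-cell covariate. Tnf, an inflammatory cytokine, stood at 424, 505 and 175 CPM in MCC+GP CD69-hi against 21.7, 17.1 and 13.2 in GP at 1 h (4.41 ± 0.51, adjusted p = 2.65e-08), at 417, 419 and 612 in MCC+GP CD69-hi against 14.9 and 9.63 in GP at 6 h, and at 67.1, 76.7 and 70.8 in MCC+GP CD69-hi against 4.61, 6.06 and 5.75 in GP at 24 h (3.69 ± 0.54, adjusted p = 4.01e-07). Cd40lg, through which T cells help B cells and dendritic cells, was likewise early, at 697, 765 and 293 CPM in MCC+GP CD69-hi against 47.0, 63.9 and 43.7 in GP at 1 h (3.50 ± 0.39, adjusted p = 9.93e-09). At 24 h it stood at 107, 107 and 96.4 CPM in MCC+GP CD69-hi against 67.6, 75.5 and 58.4 in GP, and did not pass the test (0.62 ± 0.36, adjusted p = 0.133). Lif, a cytokine of the interleukin-6 family, rose at all 3 times, by 4.74 ± 0.66, 4.01 ± 0.74 and 6.85 ± 0.76.

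Il2 (chromosome 3, 37120713 to 37125954), the main growth factor made by CD4 T cells, was the late cytokine. It stood at 2.13, 6.20 and 1.69 CPM in MCC+GP CD69-hi against 0, 0 and 0 in GP at 1 h, at least 17.5-fold higher against a floor of 3 counts over the GP group (adjusted p = 0.0152). Without MCC+GP CD69-hi replicate 2 that call was lost (adjusted p = 0.0981), as it was with thinned counts (adjusted p = 0.166). At 6 h Il2 stood at 149, 128 and 221 CPM in MCC+GP CD69-hi against 0 and 0.344 in GP, where 2 reads were counted in GP. The ratio of summed counts was 916 with a 95% counting interval of 253 to 7565 (adjusted p = 9.5e-12). Values at 24 h were 492, 504 and 499.8 CPM in MCC+GP CD69-hi against 0, 1.18 and 0.319 in GP (9.84 ± 0.57, adjusted p = 1.6e-15). The level in activated cells was thus higher at each later time, with replicates at 24 h close to each other. Other late genes were Il3, at 31.4, 26.9 and 29.5 CPM in MCC+GP CD69-hi against 0, 0.168 and 0 in GP at 24 h. Il21, a follicular helper cytokine, stood at 8.58, 8.91 and 21.1 in MCC+GP CD69-hi against 0, 0 and 0 in GP at 24 h, at least 74.7-fold higher. DESeq2 did not call Il21 (adjusted p = 0.403). Ifng of T helper 1 cells was detected in all 3 activated libraries only at 24 h, at 3.75, 3.29 and 11.9 CPM in MCC+GP CD69-hi against 0, 0 and 0 in GP (at least 36.6-fold higher, adjusted p = 0.00172). Il4, of T helper 2 cells, turned round. At 1 h Il4 rose, at 0, 4.14 and 3.37 CPM in MCC+GP CD69-hi against 0, 0 and 0.181 in GP (adjusted p = 0.00539), on 8 reads in MCC+GP CD69-hi and 1 in GP, a ratio of 40.5 with a 95% counting interval of 5.43 to 1796. At 6 h it fell, at 0, 0 and 0 CPM in MCC+GP CD69-hi against 1.61 and 1.03 in GP (adjusted p = 0.00232), and at 24 h it stood at 0.242, 0.194 and 0.128 in MCC+GP CD69-hi against 1.92, 3.03 and 1.92 in GP (-3.43 ± 1.02, adjusted p = 0.00314). The groups overlapped at 1 h and not at 6 or 24 h.

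Chemokines that attract other immune cells rose as well. Ccl4 stood at 20.2, 97.2 and 40.5 CPM in MCC+GP CD69-hi against 1.26, 0.928 and 0.903 in GP at 1 h (5.64 ± 0.60, adjusted p = 3.51e-09), at 128, 149 and 177 in MCC+GP CD69-hi against 0 and 0.516 in GP at 6 h, and at 167, 159.9 and 144 in MCC+GP CD69-hi against 0, 0.505 and 1.60 in GP at 24 h (7.67 ± 0.56, adjusted p = 2.08e-14). Xcl1, which attracts cross-presenting dendritic cells, peaked at 6 h, with 89.3, 94.1 and 80.2 CPM in MCC+GP CD69-hi against 0 and 0 in GP, at least 316-fold higher (adjusted p = 5.08e-06). At 1 h it was read in 1 activated library only, at 1.03 CPM. Npas4, an activity-induced factor best known from neurons, was also highest at 6 h, at 86.4, 107 and 91.4 CPM in MCC+GP CD69-hi against 0 and 0 in GP at 6 h, at least 341-fold higher (adjusted p = 1.25e-09). Ccl22, a chemokine of dendritic cells and activated T cells, stood at 371, 241 and 460 CPM in MCC+GP CD69-hi against 3.43 and 0.688 in GP at 6 h (7.49 ± 1.00, adjusted p = 8.67e-08). The dendritic cell factor Zbtb46 stood at 26.0, 15.1 and 31.7 CPM in MCC+GP CD69-hi against 3.02 and 2.06 in GP at 6 h, and its part in the Ccl22 result was not tested.

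Receptors that take growth and costimulatory signals rose later than the transcription factors. Of 22 such genes 9 rose and 9 fell at 1 h, 14 rose and 3 fell at 6 h, and 14 rose and 3 fell at 24 h (medians 0.26, 0.81 and 1.78). With the B-cell covariate 7 rose and 4 fell at 1 h, and with RLE size factors 12 rose and 6 fell at 6 h. Il2ra, the high-affinity chain of the interleukin-2 receptor, stood at 273, 201 and 276 CPM in MCC+GP CD69-hi against 44.2, 20.04 and 30.9 in GP at 1 h (2.98 ± 0.38, adjusted p = 1.24e-07) and at 1345, 1534 and 1520.0 in MCC+GP CD69-hi against 10.5 and 16.0 in GP at 6 h (6.78 ± 0.52, adjusted p = 2.14e-13). Its 24 h levels were 798, 822 and 1018 in MCC+GP CD69-hi against 9.98, 13.3 and 13.7 in GP (6.15 ± 0.42, adjusted p = 7.18e-15). The receptor rose before its ligand gene reached its highest level. Tnfrsf9, which encodes the costimulator 4-1BB, was not called at 1 h at 12.8, 8.27 and 2.53 CPM in MCC+GP CD69-hi against 0.842, 1.30 and 0.903 in GP (2.85 ± 1.18, adjusted p = 0.0604). It rose at 6 h, to 495, 651 and 599.7 CPM in MCC+GP CD69-hi against 2.02 and 0.859 in GP (8.68 ± 0.79, adjusted p = 1.58e-11), and was lower again at 24 h, at 75.0, 56.4 and 69.7 in MCC+GP CD69-hi against 2.30, 4.04 and 5.91 in GP (4.01 ± 0.54, adjusted p = 8.77e-08). Tnfrsf4, which encodes OX40, came later still, at 347, 202 and 273 CPM in MCC+GP CD69-hi against 14.2, 13.5 and 12.3 in GP at 24 h (4.36 ± 0.23, adjusted p = 5.31e-24), with no call at 1 h (0.07 ± 0.29, adjusted p = 0.872). At 6 h it differed by 0.65 ± 0.26 (adjusted p = 0.0318), a call lost with RLE size factors (adjusted p = 0.0534) and without GP replicate 2 (0.37, adjusted p = 0.4).

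Icos and Cd28 fell first. Cd28, the receptor of the classical costimulatory signal, stood at 231, 188 and 116 CPM in MCC+GP CD69-hi against 575, 593 and 506 in GP at 1 h (-1.65 ± 0.21, adjusted p = 1.54e-08) and did not pass at 6 h (-0.48 ± 0.22, adjusted p = 0.0717) or 24 h (0.33 ± 0.20, adjusted p = 0.15). Icos, which sustains helper responses, stood at 109.7, 57.9 and 38.8 CPM in MCC+GP CD69-hi against 151, 146 and 147 in GP at 1 h (-1.13 ± 0.20, adjusted p = 1.53e-05) and at 63.6, 77.6 and 65.9 in MCC+GP CD69-hi against 34.1 and 36.8 in GP at 6 h (0.96 ± 0.22, adjusted p = 0.000165). Its direction was opposite at the 2 times, and the difference between them was 2.09 on the log2 scale. With the B-cell covariate the fall of Icos at 1 h was -0.53 and no longer passed (adjusted p = 0.166).

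Inhibitory receptors did not move as a block. Of 20 inhibitory receptor and anergy genes 8 rose and 7 fell at 1 h, 7 rose and 6 fell at 6 h, and 11 rose and 5 fell at 24 h, with medians of 0.19, 0.44 and 1.32. Cd5, which dampens TCR signalling and follows self-reactivity, stood at 174, 149 and 147 CPM in MCC+GP CD69-hi against 70.7, 72.0 and 57.8 in GP at 1 h (1.22 ± 0.32, adjusted p = 0.00361) and at 413, 513 and 398 in MCC+GP CD69-hi against 17.1 and 17.9 in GP at 6 h (4.65 ± 0.42, adjusted p = 1.16e-11). By 24 h it stood at 579.5, 552 and 615 in MCC+GP CD69-hi against 47.4, 65.4 and 49.8 in GP (3.42 ± 0.33, adjusted p = 2.33e-11). Pdcd1, the PD-1 gene, was early as well, at 89.5, 43.4 and 91.9 CPM in MCC+GP CD69-hi against 1.47, 3.34 and 2.17 in GP at 1 h (4.98 ± 0.49, adjusted p = 7.01e-10) and at 284, 309.9 and 291 in MCC+GP CD69-hi against 2.22 and 1.38 in GP at 6 h (7.36 ± 0.58, adjusted p = 2.34e-13). Both were above GP in every library at all 3 times.

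Lag3 and Ctla4 were late. Lag3, which binds MHC class II and inhibits activation, was not called at 1 h (1.69 ± 1.14, adjusted p = 0.257) or 6 h, where it stood at 1.65, 3.02 and 2.12 CPM in MCC+GP CD69-hi against 0.806 and 1.03 in GP (1.28 ± 0.88, adjusted p = 0.249). At 24 h it stood at 244, 231 and 234 CPM in MCC+GP CD69-hi against 1.34, 0.841 and 3.03 in GP (7.04 ± 0.50, adjusted p = 5.15e-15). Ctla4, which competes with CD28 for its ligands, turned round. It stood at 13.9, 15.5 and 14.3 CPM in MCC+GP CD69-hi against 50.7, 39.7 and 34.5 in GP at 1 h (-1.51 ± 0.31, adjusted p = 0.000107). Values at 6 h were 1.24, 2.13 and 1.82 in MCC+GP CD69-hi against 29.0 and 18.2 in GP (-3.73 ± 0.35, adjusted p = 5.23e-14). At 24 h it stood at 139, 84.9 and 119 CPM in MCC+GP CD69-hi against 6.72, 6.06 and 7.82 in GP (4.05 ± 0.27, adjusted p = 8.32e-20). The groups did not overlap at any time, and the difference between the 24 h and the 6 h response was 7.78 on the log2 scale. The call at 1 h was lost when each group was given its own spread (adjusted p = 0.0547), an alternative chosen after seeing the data, and with only the compared groups and a replicate block in the fit (adjusted p = 0.0843). Tigit fell at 1 h, at 8.52, 0 and 5.06 CPM in MCC+GP CD69-hi against 18.3, 15.8 and 14.1 in GP (-1.82 ± 0.56, adjusted p = 0.00966), and rose at 24 h, at 17.6, 12.8 and 16.0 in MCC+GP CD69-hi against 0.384, 0 and 0.160 in GP.

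The TCR complex and its proximal signalling genes went down more often than up. Of 28 tested 5 rose and 12 fell at 1 h, 10 rose and 14 fell at 6 h, and 7 rose and 15 fell at 24 h, with medians of -0.30, -0.53 and -0.40. At 1 h 9 fell with RLE size factors and 7 with the B-cell covariate. Cd247, the zeta chain of the receptor complex, fell most at 6 h, at 43.2, 46.3 and 51.4 CPM in MCC+GP CD69-hi against 301 and 342 in GP (-2.77 ± 0.18, adjusted p = 3.9e-20), and stood at 144, 153 and 151 in MCC+GP CD69-hi against 249.5, 261 and 265 in GP at 24 h (-0.80 ± 0.16, adjusted p = 1.55e-05). The co-receptor gene Cd4 stood at 80.6, 88.4 and 90.8 CPM in MCC+GP CD69-hi against 533 and 579 in GP at 6 h (-2.68 ± 0.21, adjusted p = 7.59e-17). Grap2, an adaptor that links LAT to SLP-76, fell by 2.29 ± 0.20, 4.40 ± 0.22 and 3.93 ± 0.20 on the log2 scale at the 3 times. Lcp2, which encodes SLP-76 itself, rose: 1107, 1014 and 861 CPM in MCC+GP CD69-hi against 129.9, 157 and 143 in GP at 1 h (2.79 ± 0.20, adjusted p = 9.63e-17). Dgka, whose product consumes diacylglycerol and so limits TCR signals, stood at 526, 400.1 and 388 CPM in MCC+GP CD69-hi against 1345, 1268 and 1238 in GP at 1 h (-1.55 ± 0.16, adjusted p = 3.66e-11) and at 59.7, 65.9 and 59.1 in MCC+GP CD69-hi against 2129 and 2089 in GP at 6 h (-5.10 ± 0.19, adjusted p = 1.47e-29). Among the CD3 chains Cd3e fell at 1 h (-0.93 ± 0.18, adjusted p = 4.36e-05, but -0.33 and adjusted p = 0.35 with the B-cell covariate), while Cd3g (-0.26 ± 0.23) and Cd3d (-0.29 ± 0.23) did not pass there.

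The quiescence and homing list fell at each time. Of 30 tested 21 fell and 2 rose at 1 h, 23 fell and 1 rose at 6 h, and 23 fell and 2 rose at 24 h, with medians of -1.42, -2.43 and -2.44. Klf2 (chromosome 8, 72319062 to 72321654), the factor that maintains quiescence and the homing receptors, stood at 93.8, 199 and 97.8 CPM in MCC+GP CD69-hi against 1143, 1051 and 983 in GP at 1 h (-3.03 ± 0.33, adjusted p = 4.44e-09) and at 21.7, 17.4 and 23.7 in MCC+GP CD69-hi against 854 and 921 in GP at 6 h (-5.40 ± 0.37, adjusted p = 4.88e-15). Its 24 h levels were 5.56, 7.75 and 3.58 in MCC+GP CD69-hi against 805, 809 and 834 in GP (-7.21 ± 0.40, adjusted p = 8.78e-18). Its level in GP lay between 805 and 1143 CPM throughout, while that in activated cells was lower at each later time. S1pr1, the receptor by which T cells leave lymph nodes, fell by 3.40 ± 0.22, 6.77 ± 0.27 and 7.07 ± 0.27 on the log2 scale. The survival receptor gene Il7r fell by 3.31 ± 0.36, 5.73 ± 0.41 and 6.56 ± 0.41.

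Ccr7, the chemokine receptor of the T cell zone, did not follow them. It stood at 273, 411 and 497 CPM in MCC+GP CD69-hi against 1130, 1067 and 963 in GP at 1 h (-1.42 ± 0.24, adjusted p = 8e-06) and at 240.3, 249 and 255 in MCC+GP CD69-hi against 489.5 and 622 in GP at 6 h (-1.16 ± 0.25, adjusted p = 0.00015). Values at 24 h were 607, 379 and 501 in MCC+GP CD69-hi against 399, 445 and 482 in GP. The groups overlapped at 24 h, where the difference was 0.17 ± 0.23 (adjusted p = 0.548), and its sign turned with RLE size factors (-0.01). Tcf7, a factor of naive and memory potential, stood at 82.6, 112 and 101 CPM in MCC+GP CD69-hi against 1836 and 2164 in GP at 6 h (-4.34 ± 0.22, adjusted p = 1.17e-24). Its 24 h levels were 497, 440.2 and 444 in MCC+GP CD69-hi against 2696, 2668 and 2758 in GP (-2.56 ± 0.19, adjusted p = 1.22e-17). Foxo1, which drives Klf2 and Il7r, fell by 1.10 ± 0.16, 0.45 ± 0.16 and 1.04 ± 0.15.

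**Figure D3:**
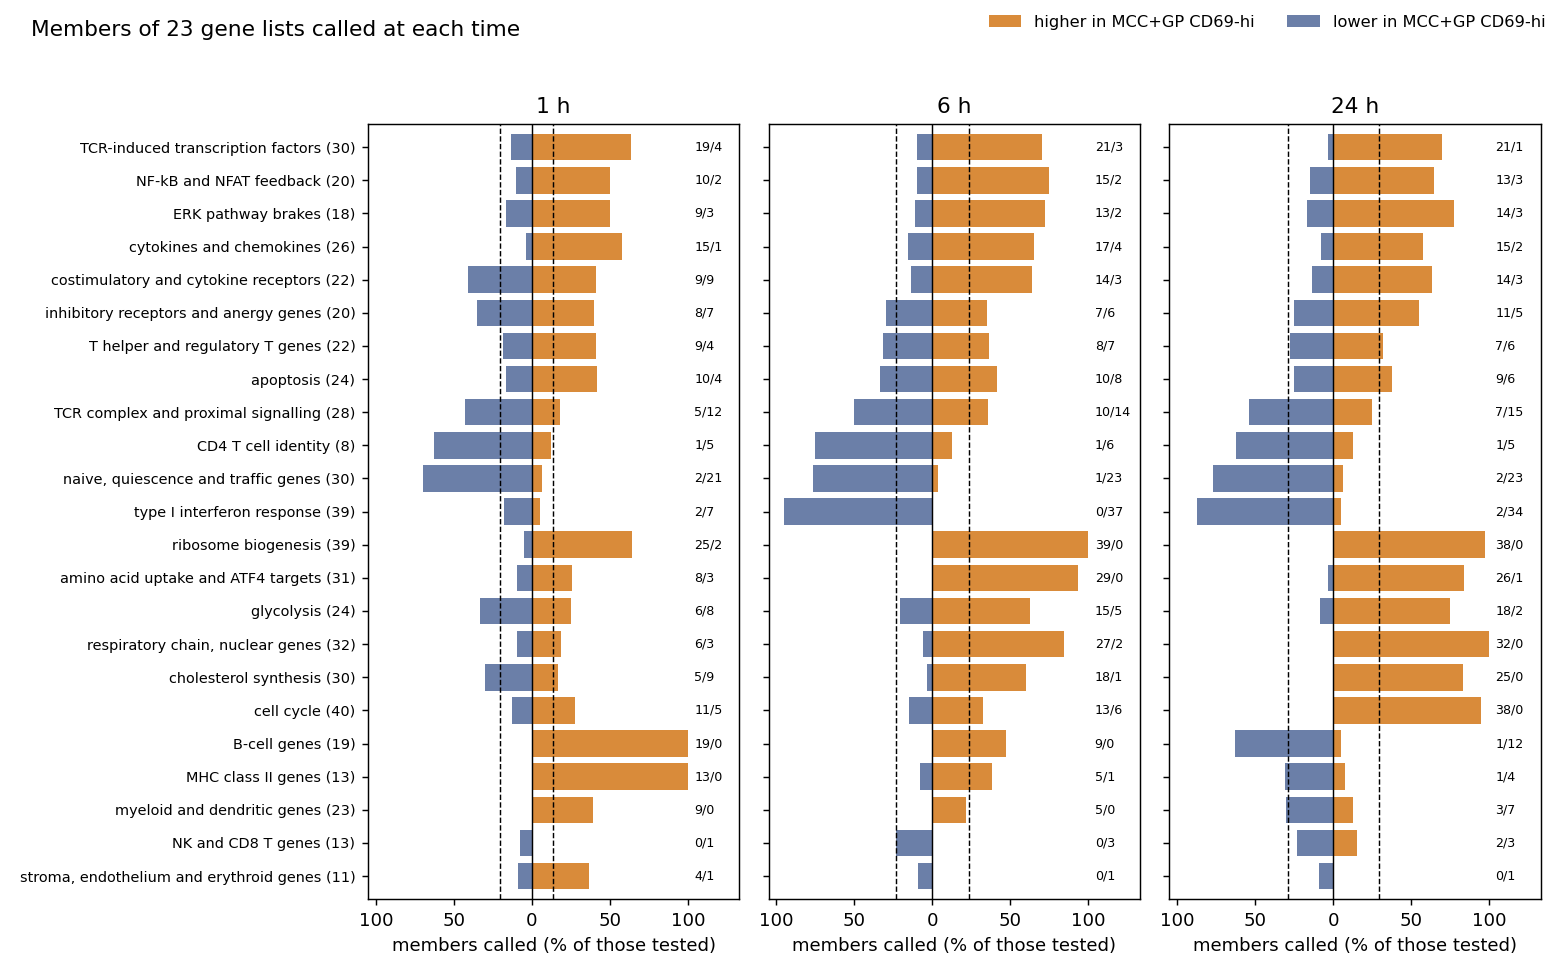
Percent of tested members called higher and lower in MCC+GP CD69-hi than in GP, for 23 gene lists at 1, 6 and 24 h; dashed lines are the percent of all 17211 genes called in that direction. Ribosome biogenesis had 25 of 39 members higher at 1 h, 39 at 6 h and 38 at 24 h, and type I interferon genes had 7, 37 and 34 of 39 lower. At 1 h these counts were 33 and 1 with RLE size factors, and 16 and 0 with the B-cell covariate.

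Growth genes rose mainly from 6 h on. Of 39 ribosome biogenesis genes 25 rose and 2 fell at 1 h, 39 rose at 6 h and 38 rose at 24 h, with medians of 0.75, 3.42 and 2.90. At 1 h 33 of them were higher with RLE size factors and 16 with the B-cell covariate. Gnl3, a nucleolar GTPase, stood at 248, 303 and 346 CPM in MCC+GP CD69-hi against 96.4, 116 and 118 in GP at 1 h (1.44 ± 0.20, adjusted p = 6.01e-08) and at 491.5, 478 and 463 in MCC+GP CD69-hi against 24.8 and 24.4 in GP at 6 h (4.28 ± 0.26, adjusted p = 1.25e-20). Ncl, the abundant nucleolar protein nucleolin, stood at 5272, 4922 and 4942 CPM in MCC+GP CD69-hi against 564 and 669.7 in GP at 6 h (3.03 ± 0.23, adjusted p = 1.65e-17). By 24 h it stood at 6154, 5328 and 6201 in MCC+GP CD69-hi against 491, 529.9 and 551 in GP (3.49 ± 0.20, adjusted p = 6.98e-23). In GP, Gnl3 was lower at 6 h than at 1 h. Rrp12, a ribosome export factor, showed no difference beyond its error at 1 h (0.23 ± 0.24, adjusted p = 0.491) and then rose by 4.84 ± 0.33 at 6 h.

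Amino acid uptake and ATF4 target genes also rose mainly from 6 h on: 8 of 31 rose and 3 fell at 1 h, 29 rose and none fell at 6 h, and 26 rose and 1 fell at 24 h (medians 0.28, 3.43 and 3.24). At 1 h 12 rose and 1 fell both with RLE size factors and with the B-cell covariate. Slc7a5, the main transporter of large neutral amino acids, stood at 221, 125 and 186 CPM in MCC+GP CD69-hi against 155, 259 and 189 in GP at 1 h, where the groups overlapped (-0.18 ± 0.30, adjusted p = 0.671). Its sign turned with RLE size factors (0.07) and with the B-cell covariate (0.91, adjusted p = 0.0827). Values at 6 h were 1043, 909.8 and 1161 in MCC+GP CD69-hi against 33.9 and 43.7 in GP (4.74 ± 0.40, adjusted p = 1.42e-12). Psat1, of serine synthesis, stood at 53.3, 42.4 and 32.0 CPM in MCC+GP CD69-hi against 22.1, 25.6 and 26.7 in GP at 1 h (0.76 ± 0.31, adjusted p = 0.0511), at 540.1, 523 and 477 in MCC+GP CD69-hi against 8.87 and 11.3 in GP at 6 h, and at 889, 704.5 and 788 in MCC+GP CD69-hi against 9.60, 17.7 and 12.1 in GP at 24 h (5.91 ± 0.30, adjusted p = 7.77e-21). Cth, which makes cysteine, was delayed. It stood at 1.65, 2.13 and 1.82 CPM in MCC+GP CD69-hi against 0 and 0 in GP at 6 h (at least 6.71-fold higher) and at 66.4, 49.6 and 50.7 in MCC+GP CD69-hi against 0, 0 and 0 in GP at 24 h, at least 323-fold higher (adjusted p = 1.49e-18). Tfrc, the transferrin receptor that brings in iron, rose by 1.57 ± 0.28, 4.57 ± 0.37 and 4.72 ± 0.31.

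**Figure D4:**
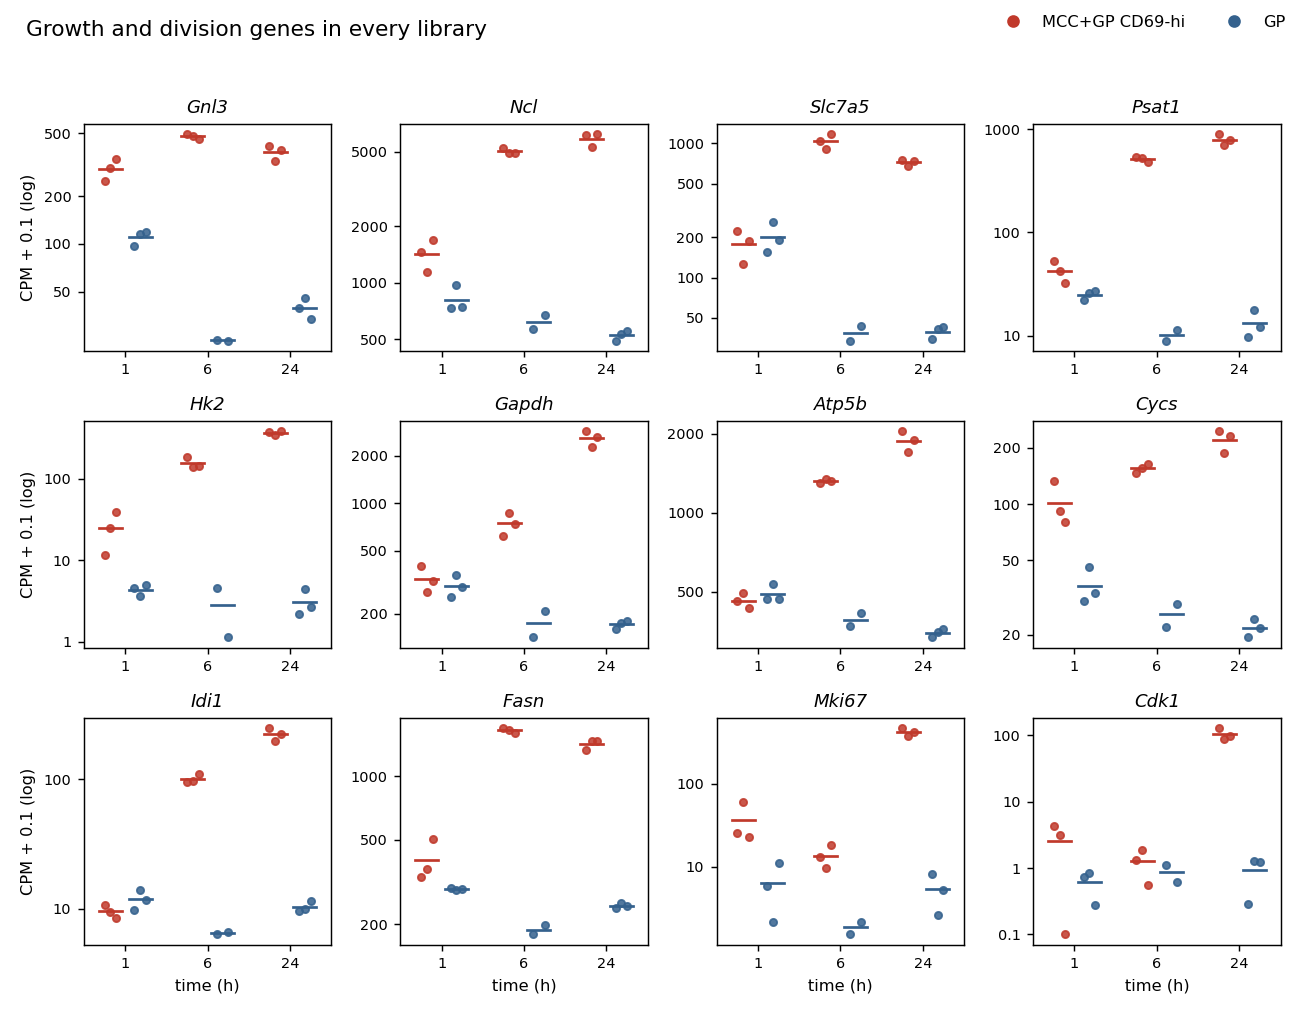
CPM plus 0.1 on a log axis for 12 genes of growth, metabolism and division in each library of MCC+GP CD69-hi and GP at 1, 6 and 24 h; points are libraries. Slc7a5 overlaps between the groups at 1 h and stands at 909.8 CPM or more in MCC+GP CD69-hi against at most 43.7 in GP at 6 h, while Cdk1 separates only at 24 h.

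Energy and lipid genes rose too, more at 24 h than at 6 h. Of 24 glycolysis genes 6 rose and 8 fell at 1 h, 15 rose and 5 fell at 6 h, and 18 rose and 2 fell at 24 h. The balance at 1 h turned with RLE size factors, where 9 rose and 5 fell, and was 4 and 4 with the B-cell covariate. Hk2, the inducible hexokinase, stood at 184, 139.5 and 144 CPM in MCC+GP CD69-hi against 4.43 and 1.03 in GP at 6 h (5.87 ± 0.57, adjusted p = 6.94e-11). Its 24 h levels were 377, 345 and 384 in MCC+GP CD69-hi against 2.11, 4.37 and 2.55 in GP (6.91 ± 0.47, adjusted p = 5.72e-15). At 1 h it rose by 2.59 ± 0.56 (adjusted p = 0.000522), and by 1.00 with the B-cell covariate, where the call was lost (adjusted p = 0.297). Gapdh did not differ beyond its error at 1 h (0.15 ± 0.21, adjusted p = 0.601) and stood at 2856, 2259 and 2634 CPM in MCC+GP CD69-hi against 160.1, 174 and 178 in GP at 24 h (3.92 ± 0.23, adjusted p = 8.71e-21). Tpi1, the next enzyme upstream of it, rose by 1.25 ± 0.28, 2.14 ± 0.27 and 5.01 ± 0.23.

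Of 32 nuclear genes of the respiratory chain 6 rose and 3 fell at 1 h, 27 rose and 2 fell at 6 h, and 32 of 32 rose at 24 h. The count at 6 h was 19 without GP replicate 1. Atp5b, of ATP synthase, did not pass at 1 h (-0.09 ± 0.16, adjusted p = 0.695) and rose by 1.76 ± 0.19 at 6 h and 2.43 ± 0.16 at 24 h. Cycs, which encodes cytochrome c, rose already at 1 h, at 133.2, 92.0 and 80.1 CPM in MCC+GP CD69-hi against 30.1, 46.0 and 33.4 in GP (1.47 ± 0.22, adjusted p = 5.14e-07). Of 30 cholesterol synthesis genes 5 rose and 9 fell at 1 h, 18 rose and 1 fell at 6 h, and 25 rose and none fell at 24 h. At 1 h 8 rose and 5 fell with RLE size factors, and 3 rose and 6 fell with the B-cell covariate. Idi1, an early enzyme of the isoprenoid steps, stood at 10.7, 9.31 and 8.43 CPM in MCC+GP CD69-hi against 9.69, 13.9 and 11.6 in GP at 1 h, where the groups overlapped, and at 246, 196 and 225 in MCC+GP CD69-hi against 9.60, 9.93 and 11.3 in GP at 24 h (4.43 ± 0.25, adjusted p = 5e-23). The fatty acid synthase gene Fasn rose by 3.14 ± 0.23 at 6 h (adjusted p = 4.41e-18).

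Division genes rose mostly at 24 h. Of 40 cell cycle genes 11 rose and 5 fell at 1 h, 13 rose and 6 fell at 6 h, and 38 rose and none fell at 24 h, with medians of 0.42, 0.68 and 4.45. With RLE size factors 14 rose and 2 fell at 1 h, and with the B-cell covariate 3 rose and 1 fell. Genes of cell cycle entry were among those higher at 6 h: the G1 kinase gene Cdk4 stood at 281, 290.5 and 306 CPM in MCC+GP CD69-hi against 44.9 and 53.5 in GP at 6 h (2.57 ± 0.19, adjusted p = 1.92e-17). The cyclin gene Ccnd2 stood at 1720.0, 1415 and 1886 CPM in MCC+GP CD69-hi against 235 and 142 in GP at 6 h (3.15 ± 0.24, adjusted p = 4.55e-17). Cdk1, the kinase of mitosis, was not called at 6 h (0.58 ± 0.79, adjusted p = 0.587) and stood at 127, 87.2 and 98.9 CPM in MCC+GP CD69-hi against 0.192, 1.18 and 1.12 in GP at 24 h (6.89 ± 0.47, adjusted p = 6.16e-19). Mki67, the proliferation antigen, stood at 467, 376 and 421 CPM in MCC+GP CD69-hi against 8.06, 2.52 and 5.11 in GP at 24 h (6.34 ± 0.52, adjusted p = 6.79e-13). At 1 h Mki67 rose by 2.5 ± 0.58 (adjusted p = 0.00113), and with the B-cell covariate by 1.18 without passing (adjusted p = 0.31). Top2a and Uhrf1, of chromosome replication, rose by 7.31 ± 0.43 and 7.62 ± 0.35 at 24 h.

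Ndc80, a kinetochore gene, had another course. It stood at 13.9, 12.4 and 22.8 CPM in MCC+GP CD69-hi against 30.7, 24.7 and 26.4 in GP at 1 h (-0.71 ± 0.32, adjusted p = 0.0796) and at 0.620, 0.355 and 0.758 in MCC+GP CD69-hi against 44.1 and 39.0 in GP at 6 h (-6.09 ± 0.42, adjusted p = 4e-19). By 24 h it stood at 46.9, 40.1 and 36.0 in MCC+GP CD69-hi against 9.21, 9.08 and 13.6 in GP (1.94 ± 0.27, adjusted p = 7.84e-09). Activated libraries were below GP at 6 h and above it at 24 h with no overlap.

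Type I interferon response genes, an antiviral programme, fell at 6 and 24 h. Of 39 tested 2 rose and 7 fell at 1 h, none rose and 37 fell at 6 h, and 2 rose and 34 fell at 24 h, with medians of -0.25, -3.25 and -2.60. The 1 h calls depended on the scaling: 3 rose and 1 fell with RLE size factors, and none did with the B-cell covariate (0 and 0). The summed level of the list was 966.1, 582.2 and 859.6 CPM in MCC+GP CD69-hi against 11390 and 6030 in GP at 6 h. The 1 h GP libraries lay between 2697 and 3819 CPM and those of 24 h between 2195 and 3069, so both GP libraries of 6 h stood above those of the other times. Without GP, the 6 h sum was 1096, 769.9 and 1130 CPM in MCC CD69-hi against 8219 and 5943 in NP. MCC+GP CD69-hi libraries lay between 1970 and 3528 CPM at 1 h and between 392.3 and 557.1 at 24 h. The difference at 6 h thus held both a low level in activated cells and a high level in GP cells of that time.

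Ifit3, an interferon-induced antiviral gene, stood at 5.99, 2.66 and 5.00 CPM in MCC+GP CD69-hi against 402 and 162 in GP at 6 h (-5.95 ± 0.53, adjusted p = 1.04e-11). Values at 24 h were 0.362, 0.969 and 0.767 in MCC+GP CD69-hi against 20.4, 39.9 and 56.8 in GP (-5.83 ± 0.67, adjusted p = 2.24e-09). Irf7, the amplifier of the interferon loop, stood at 0.846, 1.36 and 2.56 CPM in MCC+GP CD69-hi against 55.1, 68.8 and 101 in GP at 24 h (-5.53 ± 0.47, adjusted p = 1.79e-12). Isg15, a ubiquitin-like modifier, rose at 24 h instead, at 15.5, 12.98 and 13.4 CPM in MCC+GP CD69-hi against 3.07, 4.71 and 3.51 in GP (1.88 ± 0.44, adjusted p = 0.000354), as did Bst2, the tether of budding virus (1.31 ± 0.39, adjusted p = 0.004).

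Survival genes moved in both directions. Of 24 apoptosis genes 10 rose and 4 fell at 1 h, 10 rose and 8 fell at 6 h, and 9 rose and 6 fell at 24 h. The 24 h shares were 37.5% rising and 25% falling, beside 29.5% and 29% of all genes. At 1 h 4 rose and 3 fell with the B-cell covariate. Bcl2l1, which encodes the anti-apoptotic Bcl-xL, stood at 22.4, 21.7 and 55.6 CPM in MCC+GP CD69-hi against 12.4, 8.35 and 11.4 in GP at 1 h (1.68 ± 0.32, adjusted p = 5.27e-05) and at 462, 374 and 404 in MCC+GP CD69-hi against 13.1, 16.0 and 10.7 in GP at 24 h (4.96 ± 0.27, adjusted p = 6.64e-21). Bbc3, the pro-apoptotic gene of PUMA, fell by 1.83 ± 0.39 at 1 h, 0.87 ± 0.36 at 6 h and 1.91 ± 0.34 at 24 h.

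Genes of helper and regulatory fates showed no common direction, with 9 of 22 rising and 4 falling at 1 h, 8 and 7 at 6 h, and 7 and 6 at 24 h. The 24 h shares, 31.8% rising and 27.3% falling, were near those of all genes, 29.5% and 29%. With the B-cell covariate 4 rose and 3 fell at 1 h, and 2 rose with a plate round block and only the compared groups. Tbx21, the T helper 1 factor T-bet, stood at 17.4, 6.92 and 17.6 CPM in MCC+GP CD69-hi against 1.81 and 0.344 in GP at 6 h (3.72 ± 0.73, adjusted p = 3.43e-05) and at 22.8, 40.9 and 85.9 in MCC+GP CD69-hi against 0.384, 0 and 0.319 in GP at 24 h (7.61 ± 0.72, adjusted p = 4.84e-12). Its target Cxcr3, a homing receptor of inflamed tissue, stood at 31.0, 36.9 and 32.1 CPM in MCC+GP CD69-hi against 0 and 0 in GP at 6 h, at least 119.8-fold higher (adjusted p = 1.82e-11). Gata3, of T helper 2 cells, fell by 2.22 ± 0.38, 1.12 ± 0.27 and 1.26 ± 0.24 at the 3 times. Foxp3, the factor of regulatory T cells, stood at 0, 0.969 and 0.128 CPM in MCC+GP CD69-hi against 8.64, 8.08 and 6.55 in GP at 24 h (-4.58 ± 0.73, adjusted p = 2.53e-07). Bcl6, of follicular helper cells, rose at 1 h (0.98 ± 0.22, adjusted p = 0.000326) and fell at 24 h (-2.27 ± 0.23, adjusted p = 1.8e-12).

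B-cell genes, MHC class II genes and part of the myeloid genes were higher at 1 h and mostly not at 24 h. All 19 B-cell genes rose at 1 h and 9 rose at 6 h, while 1 rose and 12 fell at 24 h, with medians of 2.52, 1.27 and -1.53. Fcer2a, the low-affinity IgE receptor CD23 of B cells, stood at 128, 252 and 186 CPM in MCC+GP CD69-hi against 19.0, 11.1 and 22.0 in GP at 1 h (3.44 ± 0.51, adjusted p = 2.18e-06) and at 313, 131 and 252 in MCC+GP CD69-hi against 5.64 and 6.53 in GP at 6 h (5.24 ± 0.66, adjusted p = 2.73e-08). Its fitted fold was larger at 6 h than at 1 h, as were those of the B-cell factor genes Pax5 (2.45 at 6 h and 2.21 at 1 h) and Pou2af1 (3.56 at 6 h and 2.51 at 1 h), while the other 16 genes had a smaller one at 6 h. When the difference between these times was tested, 0 of the 19 genes were called upward and 3 downward, so most of these differences lay within the error. The receptor component gene Cd79a was not called at 6 h (0.26 ± 0.52, adjusted p = 0.731). At 24 h Cd79a stood at 6.16, 1.74 and 7.93 CPM in MCC+GP CD69-hi against 33.6, 21.2 and 40.9 in GP (-2.52 ± 0.54, adjusted p = 0.000153). All 13 MHC class II genes rose at 1 h, 5 rose and 1 fell at 6 h, and 1 rose and 4 fell at 24 h. H2-Aa, a class II chain, stood at 544, 1200 and 986 CPM in MCC+GP CD69-hi against 73.9, 62.9 and 131 in GP at 1 h (3.35 ± 0.63, adjusted p = 9.05e-05). Its call at 6 h (1.75 ± 0.74, adjusted p = 0.0494) was lost with RLE size factors (adjusted p = 0.0578) and with the B-cell covariate (0.07, adjusted p = 0.93). Of 23 myeloid and dendritic genes 9 rose at 1 h, 5 rose and none fell at 6 h, and 3 rose and 7 fell at 24 h. The 24 h falling shares of the MHC class II and myeloid lists, 30.77% and 30.43%, were near the 29% of all genes. Among the myeloid genes that rose at 1 h was the integrin gene Itgax, at 22.4, 33.1 and 65.7 CPM in MCC+GP CD69-hi against 1.68, 1.67 and 3.97 in GP (4.04 ± 0.76, adjusted p = 8.24e-05). With the B-cell sum as a covariate 1 B-cell, 1 MHC class II and 1 myeloid gene rose at 1 h, no MHC class II gene (0 of 13) rose at 6 h, and at 24 h 3 B-cell genes and none of the 7 myeloid genes were called lower. The covariate is the sum of those B-cell genes.

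Genes of cytotoxic and natural killer cells gave no rise at 1 or 6 h, where 0 of 13 rose and 1 and 3 fell. The falling shares were 7.69% at 1 h and 23.08% at 6 h, beside 20.1% and 23.2% of all genes. At 24 h 2 rose and 3 fell, which is 15.38% and 23.08%, beside 29.5% and 29% of all genes. Gzmb, a protease of killer cell granules, stood at 17.4, 9.30 and 20.8 CPM in MCC+GP CD69-hi against 0, 0 and 0 in GP, at least 92.0-fold higher (adjusted p = 1.94e-05). Klrd1, a natural killer receptor chain, was at 0 in the 3 activated libraries against 23.8, 28.8 and 32.7 CPM in GP, at least 201.5-fold lower (adjusted p = 3.38e-17). Cd7, an early T cell marker, was likewise at 0 in the 3 activated libraries against 21.9, 20.9 and 19.6 CPM in GP, at least 147-fold lower (adjusted p = 1.2e-15). Of 11 stroma, endothelium and erythroid genes 4 rose at 1 h, the collagen genes Col1a2 and Col3a1, Cdh5 of endothelium and Pdgfra of stroma, none above 4.14 CPM in any MCC+GP CD69-hi library and all at 0 in GP. None of these 4 rose with the B-cell covariate. Pecam1, an adhesion receptor that is in the endothelium list but that naive T cells express as well, was the falling member of that list at each time, at 17.8, 13.3 and 16.8 CPM in MCC+GP CD69-hi against 445.6 and 429 in GP at 6 h (-4.77 ± 0.21, adjusted p = 2e-27).

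The responses at different times overlapped in part. Of the genes that rose at 1 h 43.6% also rose at 6 h and 37.3% at 24 h, while 14.7% fell at 24 h. Of those that fell at 1 h 55.6% fell at 6 h and 52.0% at 24 h, and 21.5% rose at 24 h. Between 6 and 24 h 77.4% of the rising and 71.1% of the falling genes kept their call. Of all genes 23.5% rose and 23.2% fell at 6 h, and 29.5% rose and 29% fell at 24 h. The shares that turned round between 1 and 24 h, 14.7% and 21.5%, were thus below those of all genes. In all 718 genes rose and 1498 fell at each of the 3 times, 2046 rose at 6 and 24 h without a call at 1 h, and 4123 were called at none. The difference between times was tested itself: the response differed between 6 and 1 h for 5407 genes (31.4%), with 3267 differences upward and 2140 downward, and between 24 and 6 h for 4195 genes (24.4%), with 2395 upward and 1800 downward. With RLE size factors the first split was 45.7% upward in place of 60.4%. Without GP replicate 2 of 6 h, 2735 genes differed between 24 and 6 h.

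The response with GP was then set against the response without it, MCC CD69-hi against NP, by testing the difference of the 2 responses for each gene. It differed for 4 of 17211 genes at 1 h (0.0232%), and for 0 at 6 h and 0 at 24 h. At an unadjusted p under 0.05 there were 1692, 162 and 172 genes, which are 9.83%, 0.941% and 0.999% of those tested, and DESeq2 called 34, 0 and 4. At 6 and 24 h the shares with an unadjusted p under 0.05 lay below the share of 0.05 due where no gene differs. The test was therefore on the cautious side at these times. The counts of called genes do not show that the responses are the same. Among the 4535 genes above 50 CPM the median SE of the difference was 0.257, 0.266 and 0.237 on the log2 scale at the 3 times. For a typical gene differences of about these sizes lay within the error. Larger differences could go uncalled as well, as that of Irf4 at 24 h did (values below). The shallowest libraries at 1 h were the 3 of MCC+GP CD69-hi and MCC CD69-hi replicate 2, with 852129 counts.

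**Figure D5:**
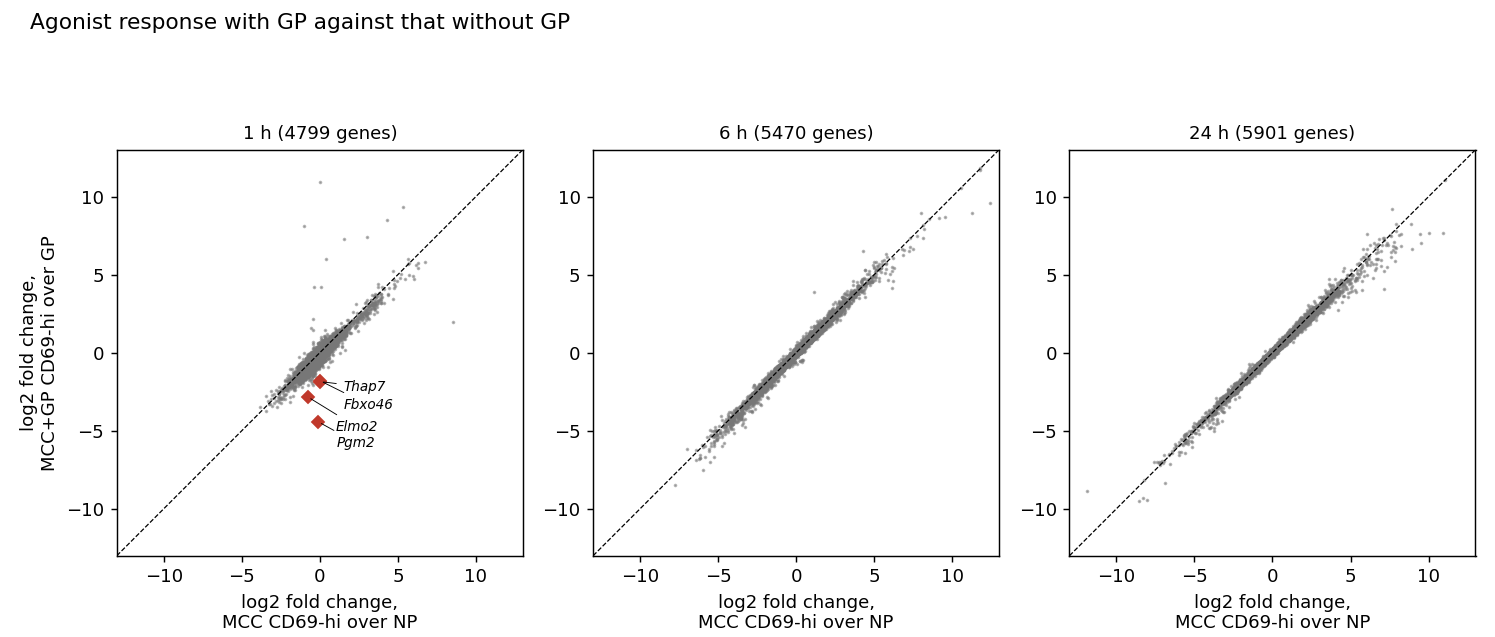
Log2 fold change of MCC+GP CD69-hi over GP (vertical axis) against that of MCC CD69-hi over NP (horizontal axis) for genes with a mean above 50 CPM in any of the 4 groups, at 1, 6 and 24 h; each point is a gene, and diamonds mark the 4 genes whose difference was called at 1 h. Points lie along the line of equal responses, with Pearson's r over the 4535 genes of more than 50 CPM at 0.948, 0.994 and 0.994.

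The 2 responses share no library, although their libraries lie on the same plate rounds. Across the 4535 genes above 50 CPM their log2 fold changes had Pearson's r of 0.948 at 1 h, 0.994 at 6 h and 0.994 at 24 h, and across all 17211 genes 0.442, 0.842 and 0.902. These are descriptions across genes, which are not independent replicates. Without GP 5053 genes (29.4%), 8044 (46.7%) and 9956 (57.8%) were called at the 3 times. Of the genes called with GP 59.8% were called in the same direction without GP at 1 h, 89.2% at 6 h and 90.5% at 24 h, and of those called without GP 68.8%, 89.1% and 91.5%. Opposite calls were made for 9 genes at 1 h and for none at 6 or 24 h.

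All 4 genes of the 1 h difference fell with GP. Elmo2 (chromosome 2, 165288031 to 165326479), which helps to activate the small GTPase Rac, stood at 6.39, 7.24 and 6.74 CPM in MCC+GP CD69-hi against 46.7, 52.3 and 46.1 in GP (-2.83 ± 0.26, adjusted p = 3.72e-13), while the response without GP was -0.77 ± 0.18. The difference was -2.05 ± 0.33 (adjusted p = 0.000864). Pgm2 (chromosome 5, 64092919 to 64128355), a sugar phosphate mutase, stood at 1.07, 0 and 0.843 CPM in MCC+GP CD69-hi against 16.8, 12.8 and 13.7 in GP, with 2 reads in all 3 MCC+GP CD69-hi libraries and a ratio of summed counts of 22.2 for GP over MCC+GP CD69-hi (95% counting interval 6.09 to 184.8). It changed by -0.10 ± 0.29 without GP, a difference of -4.33 ± 0.72 (adjusted p = 0.00118). Fbxo46, which encodes an F-box protein, stood at 7.46, 5.17 and 8.43 CPM in MCC+GP CD69-hi against 28.9, 24.5 and 20.8 in GP, with a difference of -1.8 ± 0.36 (adjusted p = 0.0287). Thap7, a chromatin-binding repressor, stood at 10.7, 5.17 and 6.74 CPM in MCC+GP CD69-hi against 25.7, 28.4 and 26.7 in GP, with a difference of -1.87 ± 0.36 (adjusted p = 0.0166).

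Fbxo46 changed by 0.01 ± 0.21 and Thap7 by 0.02 ± 0.21 without GP. In MCC CD69-hi at 1 h these genes had means of 29.5 (Elmo2), 12.2 (Pgm2), 27.01 (Fbxo46) and 27.3 CPM (Thap7). The 3 shallow MCC+GP CD69-hi libraries thus stood apart from the other 1 h groups, with 21 reads of Elmo2, 22 of Fbxo46 and 23 of Thap7 in all. All 4 calls were lost when the counts were thinned to the lowest total, when only the compared groups were fitted, and when each group had its own spread, with adjusted p of 0.106 or more. At 6 h the differences were 0.02 for Elmo2, 0.05 for Pgm2, 0.33 for Fbxo46 and 0.07 for Thap7, none of them called.

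Of the other genes named above, none was called as differing between the responses with and without GP. At 24 h the fitted response of Irf4 was 5.42 ± 0.28 with GP and 6.62 without it (difference -1.20 ± 0.35, adjusted p = 1), and that of Nr4a1 2.72 ± 0.51 and 4.17 (difference -1.45 ± 0.71, adjusted p = 1). For Ctla4 at 1 h the responses were -1.51 ± 0.31 and -0.49 (difference -1.02 ± 0.41, adjusted p = 0.401). For Myc at 6 h they were 5.33 ± 0.33 and 5.29, with a difference of 0.03 ± 0.37.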

How the data were processed

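Members and gene lists were chosen with earlier results of these data known. The authors deposited a table of read counts per gene for 51 libraries in 18 groups, made with bcl2fastq 2.20, STAR 2.6.1c, HTSeq 0.9.1 and the mm10 build per the submitters' processing notes; strand use in counting is not given in the sources used here, so overlapping and antisense genes cannot be told apart. A second deposited table is labelled TPM, but its columns sum to 9986 to 9996; it was not used for any test. Of 34923 features, 38 share a symbol, and 17211 passed edgeR's filterByExpr by group. Counts were fitted in R 4.3.3 with edgeR 4.0.16 (TMM, quasi-likelihood test, Benjamini-Hochberg adjustment, false discovery rate 0.05) over all 51 libraries, with 1 group per peptide, gate and time; the response with GP minus that without, and differences between times, were contrasts of the same fit. The script was tested on simulated data. The SE of a log2 fold change is its size divided by the square root of the F statistic. CPM of single genes use TMM-normalized library sizes, and list sums use plain CPM. A fold against a group at 0 is set against 3 counts over the group; this floor and exact counting intervals (Clopper-Pearson, 95%) cover counting error only. Replicates differed beyond counting noise (chi-square per degree of freedom 4.18 to 18.86). Genes named are a panel of 39 genes, up to 6 with the largest change in each direction above 20 CPM, up to 4 called members of each of 23 lists above 5 CPM, and a few chosen after their values were seen. Alternatives were RLE size factors, no filter, DESeq2 1.42.0, thinned counts, a B-cell covariate, replicate blocks, other library sets and leaving out each replicate. Size factors without genes of other cells, a separate spread for each group and another assignment of wells to plate rounds were added after seeing the data. Some genes of the lists are not reported here by name.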

Additional observations from a re-analysis of the deposited data

Results flagged for a closer look

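The response with GP differed from the response without GP, by a test of the difference itself, for 4 genes at 1 h: Elmo2 (-2.05), Fbxo46 (-1.8), Pgm2 (-4.33) and Thap7 (-1.87, log2 scale). All 4 differences lost the call with thinned counts, and the 3 MCC+GP CD69-hi libraries and MCC CD69-hi replicate 2 were the shallowest of those compared at 1 h.

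The response also differed between times, for 5407 genes between 6 and 1 h and for 4195 between 24 and 6 h. Values here are differences of log2 fold changes, and where a group was at or near 0 counts their size depends on edgeR's prior count. Among genes that met the expression minimum of the naming rule, the upward differences at 6 h relative to 1 h were led by Crtam (12.31), Crabp2 (9.28), Syde2 (8.21), Rgs16 (8.07), Npas4 (7.68) and Gins2 (7.33). The downward ones were led by Gsg1l (-10.32), Ighv8-12 (-8.95), Kif2c (-7.32), Dapl1 (-6.41), Kif14 (-6.36) and Cyp2s1 (-6.18). At 24 h relative to 6 h the upward ones were led by Kif14 (10.62), Kif2c (10.45), Esco2 (9.16), Cenpi (8.32), Kntc1 (8.27) and Ndc80 (8.03), and the downward ones by Klrd1 (-8.95), Adam23 (-6.52), Il1b (-6.09), Socs2 (-5.63), Dll4 (-5.51) and Mreg (-5.42). Kif14 and Kif2c, motor proteins of mitosis, thus had a downward difference between 1 and 6 h and an upward one between 6 and 24 h. The expression minimum could be met at any of the times. At 1 h Kif2c rested on 4 reads in MCC+GP CD69-hi and 2 in GP, a ratio of 10.1 with a 95% counting interval of 1.45 to 111.8. Calls in opposite directions were made for Icos at 6 and 1 h (difference 2.09) and for Ctla4 at 24 and 6 h (difference 7.78).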

How the results depend on the processing

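The count at 1 h, 5812 genes, was 3149 with the B-cell covariate, 3360 with only the compared groups, 2009 with a replicate block and only those groups, and 3802 with thinned counts. The 4 genes of the difference with and without GP at 1 h became 8 without the filter and 34 with DESeq2. They became 0 with a separate spread, only the compared groups or thinned counts. Without the 3 shallowest libraries of the series they became 14. Those libraries are MCC+GP CD69-lo at 24 h (29030 to 301455 counts), outside this comparison, so the shallow 1 h libraries stayed in that fit. At 6 h 5 were called with a replicate block and only the compared groups, and at 24 h 1 without the filter, 4 with DESeq2 and 11 with that block. Differences between 6 and 1 h were 3501 with thinned counts, and those between 24 and 6 h 7057 with a separate spread, 6833 with only the compared groups and 6901 with the block added. Leaving out 1 replicate gave between 4408 and 5024 genes at 1 h, between 6579 and 7479 at 6 h, between 9097 and 9450 at 24 h, 2 to 24 for the difference with GP at 1 h (24 without MCC+GP CD69-hi replicate 3) and 0 at 6 and 24 h, 4246 to 5061 between 6 and 1 h, and 2735 to 3905 between 24 and 6 h. The cause of these shifts was not tested. Same-round samples correlated weakly but always positively in their deviations from the group means (0.062 to 0.168, not above 0.1 in every pair). These values take in all 17211 genes, also those of low counts, so they cannot show that the rounds were unpaired. The fit without a block was kept, although Xist levels were alike within part of the rounds. With plate round as a replicate block 5271, 8319 and 10424 genes were called. Signs turned for Slc7a5 at 1 h (0.07 with RLE and with DESeq2, 0.91 with the B-cell covariate, 0.17 without GP replicate 2, 0.15 without MCC+GP CD69-hi replicate 2; -0.23 to 0.17 with a replicate left out), Ccr7 at 24 h (-0.01 with RLE and with DESeq2, -0.03 without MCC+GP CD69-hi replicate 1, up to 0.29 without replicate 2) and Tnfrsf4 at 1 h (-0.09 thinned, -0.02 without GP replicate 3, up to 0.43 without MCC+GP CD69-hi replicate 2). With the B-cell covariate they also turned at 1 h for Ccr6 (-1.11), Cd74 (-0.10), Idi1 (0.44) and Scd1 (-1.21), and without MCC+GP CD69-hi replicate 2 for Ifng (-2.55, against up to 6.08 without other replicates) and Xcl1 (0, against up to 4.5). Over 378 gene results 6485 values kept direction and side of the threshold, 306 lost the call and 28 gained it. Depth is one of the limits of the 1 h comparison.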

Other observations

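Xist and the summed level of Y-linked genes differed between libraries of a group. In the first plate round, as wells number it, Xist did not exceed 1.01 CPM while the Y-linked sum lay between 203 and 526.7 CPM. In the second, Xist lay between 300.6 and 1047 CPM, and the Y-linked sum was 236.9 CPM in MCC+GP CD69-hi against 270.6 in GP at 1 h, and 0.524 in MCC+GP CD69-hi against 4.70 in GP at 24 h. MCC+GP CD69-hi replicate 3 of 1 h had 0 CPM of Xist and 448.8 of the Y-linked sum.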
